A study of Mus musculus with 5 samples.

Results

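Malat1 and Neat1 are neighbouring genes for long noncoding RNAs on mouse chromosome 19, and their histone marks were examined in EpiSC9, an established line of epiblast stem cells of the mouse. All peaks of the 4 deposited lists that touch positions 5780000 to 5860000 of chromosome 19 in mm9 were taken, which gave 26 of 156288 peaks. In this window Malat1 lies at about 5795700 to 5802700 and Neat1 at about 5842000 to 5845500. The peaks were selected by position, and the window was chosen by the width of the H3K4me3 peak on Malat1, known to be among the widest of its list, so that width is given as a description. The gene positions are rounded, so distances from a gene start carry an error of about the rounding.

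The study mapped 4 modifications of histone H3 by chromatin immunoprecipitation and sequencing, with 1 library each for H3K4me3, H3K27ac, H3K4me1 and H3K27me3 and an input library that was not analysed here. All libraries came from the same untreated line, held in the primed state of pluripotency by 10 ng/ml FGF2 in medium with 20% serum replacement, on a feeder layer of irradiated mouse embryonic fibroblasts. Each immunoprecipitation used 5000000 crosslinked cells. There is 1 library per mark and no replicate, so every value below describes these libraries and no difference carries a test. The share of chromatin from feeder cells was not measured, and the identity of the cells was not checked against marker genes here, since gene positions on mm9 were not at hand.

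Malat1 makes an abundant, largely unspliced RNA that stays in the nucleus and gathers at nuclear speckles, the bodies that store splicing factors. Its 3′ end is cut off and processed into mascRNA, a small RNA shaped like a tRNA. Neat1 is the RNA scaffold of paraspeckles, nuclear bodies built from RNA-binding proteins such as Nono and Sfpq. It has a short and a long transcript that share their 5′ end, and the interval above covers the part near that end. In human embryonic stem cells paraspeckles are known to be missing and to appear on differentiation. Both genes are read in the same direction, from the Neat1 side toward Malat1, so their starts are at about 5845500 and 5802700, 42.8 kb apart. In the RefSeq order of genes (assembly GRCm38.p6) Frmd8, which codes for a FERM domain protein, lies upstream of Neat1.

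H3K4me3 marks the starts of active or poised genes and H3K27ac marks active promoters and enhancers. H3K4me1 lies at enhancers and on both sides of promoters, and H3K27me3 is laid down by Polycomb complexes at silenced genes. H3K4me3 is known to follow CpG dinucleotides, which recruit the enzymes that write it. The start region of Malat1 is shown for that reason, since the widest H3K4me3 peak of the window lies over it. Of the 2 genes, 1, Malat1, matched the RefSeq table of promoters (build GRCm38.p6, chr19:5802623-5802922, minus strand, 250 bases before the start and 50 after it). Positions of that build were not set against the mm9 peaks. The sequence is written 5′ to 3′, with each CpG in capitals.
Malat1 promoter: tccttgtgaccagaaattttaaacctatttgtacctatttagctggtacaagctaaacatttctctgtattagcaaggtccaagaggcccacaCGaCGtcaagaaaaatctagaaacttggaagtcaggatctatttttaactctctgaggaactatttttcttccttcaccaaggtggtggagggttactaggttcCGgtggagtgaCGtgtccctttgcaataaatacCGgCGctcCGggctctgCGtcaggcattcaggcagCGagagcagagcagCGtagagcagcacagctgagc

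These 300 bases held 10 CpGs, of which 8 fell in the last 150 bases, next to the start. Over the 32841 promoters of the table the median was 7 CpGs, and 43.5% had 10 or more. The G and C content was 47%, against a median of 52.7%. The start region of Malat1 was therefore close to the middle rank of all promoters in CpG number and somewhat poorer in G and C. The most common count was 2, so the middle rank is not a typical promoter. These 300 bases are far shorter than the H3K4me3 peak of 7.22 kb at Malat1 and do not describe the CpGs under it. A search of both strands found TGACGT, part of the cyclic AMP response element that binds Creb proteins, at 2 positions that begin 155 and 45 bases before the start. At least 1 copy of that motif occurred in 7.51% of all promoters, and the share with 2 copies was not counted. TATAAA (in 13.6% of promoters), CCAAT (37.4%), GGGCGG (35.7%) and CACGTG (7.15%) were not in this window of letters. Only these exact strings were searched, so variants of the motifs can be present.

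The window held 5 H3K4me3, 11 H3K27ac, 10 H3K4me1 and 0 H3K27me3 peaks. H3K4me3 covered 11.5 kb of it, H3K27ac 31.9 kb and H3K4me1 37.3 kb. Both genes thus lay in chromatin with H3K4me3, H3K27ac and H3K4me1 peaks and without a Polycomb peak. Of these marks only H3K27ac is read as a mark of activity by itself. Scores are the authors' own, have no stated scale and take the value 3100 or slightly more for many peaks, so they serve to rank peaks within 1 list. The number of reads behind the lists is unknown.

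**Figure D1:**
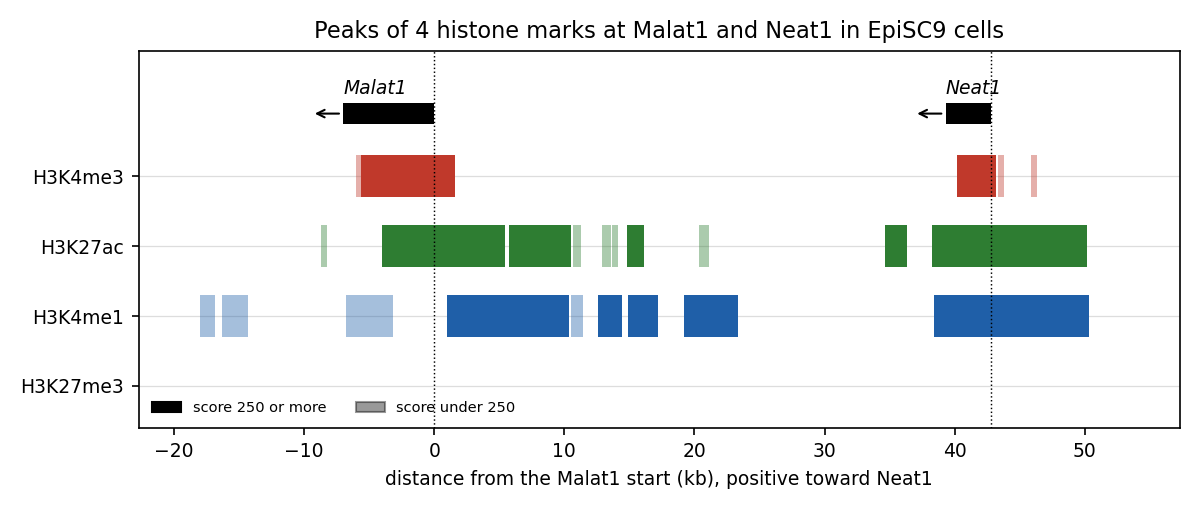
Peaks of the 4 marks in the window, by distance from the Malat1 start in kb, with positive values toward Neat1. Each bar is 1 peak, dark at a score of 250 or more and pale below it. Black bars are the genes, arrows give the direction of transcription and dotted lines mark the starts. Peaks gather around both starts and between 0 and 25 kb upstream of Malat1, and the H3K27me3 row holds 0 peaks.

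At Malat1, H3K4me3 formed 1 peak of 7.22 kb with a score of 3100, at 5797091 to 5804314. It reached 5.61 kb into the gene and 1.61 kb upstream of its start. Of the 28941 H3K4me3 peaks in the list, 3 were this wide or wider, and of the 962 on chromosome 19 it was the widest. A second H3K4me3 peak of 383 bp with a score of 83.93 lay 34 bp further toward the 3′ end, at 5796674 to 5797056. With gaps of up to 1 kb closed they formed a block of 7.64 kb, and 62 of 21253 H3K4me3 blocks (0.292%) were as wide, so the rank depends on how peaks are split. Together they covered 5.99 kb of the gene, or 85.6% of its length, so H3K4me3 lay over most of the body and was not confined to the start.

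H3K27ac at Malat1 was shifted upstream relative to H3K4me3. A peak of 4.98 kb at 5798724 to 5803699 held the start and reached 3.98 kb into the gene, which left the 3′ part of the gene without H3K27ac. Directly upstream, after a gap of 14 bp, lay a peak of 4.41 kb at 5803714 to 5808120, and after another 311 bp a peak of 4.75 kb at 5808432 to 5813186. All 3 scored 3100, a level that 3.06% of the 33600 H3K27ac peaks reached. Peaks as wide made up 0.634%, 1.07% and 0.774% of the list in the same order. With gaps of up to 1 kb closed, these peaks and a weak one of 586 bp formed a single block of 15.3 kb, and 13 of 24347 such blocks in the genome were that wide or wider.

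The H3K4me1 peaks left the Malat1 start free. One peak of 3.59 kb at 5795919 to 5799505, with a score of 193.22, covered the 3′ part of the gene up to 219 bp from its end. The next began 0.973 kb upstream of the start and ran for 9.42 kb, at 5803673 to 5813091, with a score of 1052.09 that 0.83% of the 76772 H3K4me1 peaks reached or passed. Between them lay 4167 bp without H3K4me1, and every base of this gap was under both H3K4me3 and H3K27ac. H3K4me1 was thus found on both sides of the start and not on it. The flank inside the gene rests on the weaker peak, whose score 31.7% of the list reached, and with equal numbers of top-scoring peaks kept in each list H3K4me1 covered 0 bp of Malat1, which leaves the upstream flank alone.

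Gaps of this kind are common in outline but rarely of this length. In the whole list, 4633 H3K4me3 peaks (16%) held H3K4me1 on both sides of an inner gap. Their longest gap had a median of 369 bp, and that of 4 peaks, Malat1 included, was 4167 bp or more, with 4871 bp as the largest. Malat1 enters this count only through the weaker H3K4me1 peak inside the gene. With equal numbers of top-scoring peaks kept it has no gap of this kind. The H3K4me3 peaks were taken as listed, without merging. A wide H3K4me3 peak leaves room for a longer gap, so the length of the gap and the width of the peak are not separate observations.

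Neat1 carried the same 3 marks in another arrangement. Its H3K4me3 peak at 5842868 to 5845847 was 2.98 kb wide and scored 3100. It reached 2.63 kb into the gene and 0.347 kb upstream of the start, a distance near the rounding of the start position. Peaks as wide made up 3.41% of the list, and 39 of 962 on chromosome 19. Further upstream lay 2 small peaks, 1 of 482 bp with a score of 191.13 at 5846017 to 5846498 and 1 of 399 bp with a score of 57.73 at 5848603 to 5849001. At both genes H3K4me3 therefore lay more inside the gene than upstream of it.

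A single H3K27ac peak of 11.9 kb with a score of 3100 spanned the start of Neat1, at 5840954 to 5852854. It ran from 4.55 kb downstream of the start to 7.35 kb upstream. It covered the whole 3.5 kb interval of Neat1 and passed its far end. Of 33600 H3K27ac peaks, 6 were this wide or wider, the widest being 13.9 kb. With gaps of up to 1 kb closed its width stayed at 11.9 kb, and 48 of 24347 blocks (0.197%) were as wide. The other 5 single peaks, on chromosomes 16, 8, 5, 3 and 11, had between 0% and 91.5% of their length under H3K4me3, against 32.4% for the peak on Neat1. H3K4me1 covered 98.5% of the peak on Neat1 and between 58.9% and 98.9% of the other 5. The list of widest acetylated regions thus mixes regions with little and with much H3K4me3, and the one on Neat1 stands among them with H3K4me3 around the start.

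Unlike at Malat1, H3K4me1 at Neat1 ran across the start. A peak of 4.84 kb with a score of 320.47, at 5841093 to 5845929, covered the interval of Neat1 and its start. After 38 bp a peak of 7.04 kb followed at 5845968 to 5853010, with a score of 1259.57, the highest H3K4me1 score in the window. That score was reached or passed by 0.397% of the list. Joined across the gap, H3K4me1 spanned 11.9 kb, with edges 139 bp and 156 bp from those of the H3K27ac peak. At Neat1 these 2 marks therefore began and ended at nearly the same positions, with H3K4me3 as a narrower peak inside them.

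**Figure D2:**
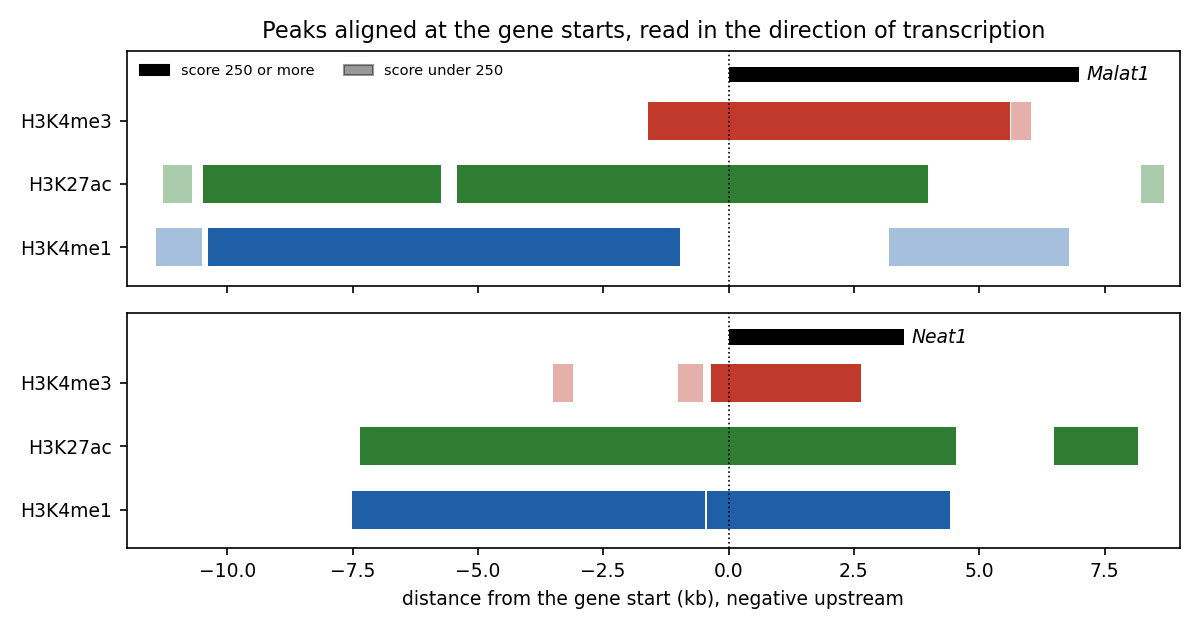
Peaks of H3K4me3, H3K27ac and H3K4me1 at Malat1 (top) and Neat1 (bottom), aligned at the gene starts and read in the direction of transcription, with distance from the start in kb and negative values upstream. Bars are peaks, dark at a score of 250 or more and pale below it, and black bars are the gene intervals. H3K4me1 is missing over 4.17 kb around the Malat1 start and covers the Neat1 start.

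The arrangement can be put in shares of the 1 kb centred on each start. H3K4me3 covered 100% of it at Malat1 and 84.7% at Neat1, and H3K27ac 100% at both. H3K4me1 covered 0% at Malat1 and 96.2% at Neat1. In the first 3 kb of each gene the H3K4me1 shares were 0% at Malat1 and 100% at Neat1. The genes also differed in which mark went further downstream of the start. At Malat1 H3K4me3 reached 5.61 kb from the start and H3K27ac 3.98 kb, while at Neat1 H3K4me3 reached 2.63 kb and H3K27ac 4.55 kb. The last value runs past the 3.5 kb interval of Neat1, whereas those at Malat1 end inside its interval of 7 kb. With 1 library per mark, these differences between the genes have no test.

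The wide H3K4me3 peak on Malat1 had 77.2% of its length under H3K27ac and 42.3% under H3K4me1. Only 2 other H3K4me3 peaks were as wide, too few for a comparison. Their medians were 49.2% and 22.3%, and 1 of them had no H3K27ac. The peak on Neat1 had 100% under each. Among the other 987 H3K4me3 peaks as wide as that on Neat1, the median was 66% under H3K27ac and 69.3% under H3K4me1. H3K27ac was missing from 247 of these 987 and H3K27me3 lay on 281. Full cover, as at Neat1, was found in 99 of the 987 for H3K27ac and in 87 for H3K4me1.

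Of the 5 H3K4me3 peaks of the window, 4 overlapped H3K27ac, against 49.2% of the whole list, and 5 overlapped H3K4me1, against 83.2%. The exception was the 383 bp peak at the 3′ side of Malat1. H3K27me3 lay on 0 of the 5, against 16.6% of all H3K4me3 peaks. A score of 3100 or more was found for 2 of the 5, the wide peaks on the genes, against 25.4% of the list. The small peaks lie beside the wide ones, and 5 peaks are too few to set the window apart.

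The stretch between the Malat1 start and the interval of Neat1 held most of the remaining peaks. Part of it can belong to the long Neat1 transcript, whose end is not given here, so it is not read as intergenic. In these 39.3 kb H3K27ac covered 16.6 kb and H3K4me1 19.6 kb, while H3K4me3 covered 1.61 kb, all of it the upstream end of the Malat1 peak. Most of this length lay on the Malat1 side. Over the 10 kb upstream of the Malat1 start, H3K27ac covered 96.8% and H3K4me1 90.3%. The outer edge of both marks, with gaps of up to 1 kb closed, lay 11.3 kb upstream for H3K27ac and 11.4 kb for H3K4me1, 149 bp apart. Over the 10 kb upstream of the Neat1 start the shares were 73.5% for H3K27ac and 74.7% for H3K4me1.

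Further from Malat1 the acetylation became patchy. At 12.6 to 17.2 kb upstream of its start 2 H3K4me1 peaks of 1.86 and 2.36 kb scored 269.02 and 377.04, and the 3 H3K27ac peaks on them scored 64.42, 54.41 and 381. At 19.2 to 23.3 kb an H3K4me1 peak of 4.14 kb scored 588.95, which 4.53% of the list reached or passed, and held a small H3K27ac peak of 763 bp with a score of 89.03. On these elements H3K27ac was narrower than H3K4me1, whereas in the first 10 kb the marks covered nearly the same bases. Narrower H3K27ac is usual in these lists, where median widths were 818 bp for H3K27ac and 1541 bp for H3K4me1. A stretch of 15058 bp without H3K4me1 followed, up to the block at Neat1.

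In that stretch, 6.49 to 8.16 kb downstream of the Neat1 start, lay an H3K27ac peak of 1.68 kb with a score of 284.14, at 5837339 to 5839014. It met no peak of the other marks. A second H3K27ac peak without either H3K4 mark, of 456 bp with a score of 60.95, lay beyond the 3′ end of Malat1 at 5794020 to 5794475. Such peaks were 2 of the 11 H3K27ac peaks in the window, against 16.7% of the list. Of the 11, 9 overlapped H3K4me1, against 77.8%, and 3 overlapped H3K4me3, against 42.1%. H3K27me3 lay on 0 of the 11, against 0.601%. The counts with H3K4me1 and with neither H3K4 mark are near the shares of the list, and 11 peaks are too few to read the others.

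H3K4me1 peaks away from H3K4me3 are commonly read as enhancers, and 6 of the 10 H3K4me1 peaks had no H3K4me3 peak within 1 kb, against 66.7% of the list. H3K27ac lay on 4 of the 6, against 18.7% of all such peaks. The other 2, of 1.09 and 2.01 kb with scores of 85.38 and 181.55, were those beyond the 3′ end of Malat1, at 5784729 to 5788407. Of all 10 H3K4me1 peaks, 8 overlapped H3K27ac, against 30.9%, and 4 overlapped H3K4me3, against 31.4%. H3K27me3 lay on 0 of the 10, against 6.21%. By bases, 67.9% of the H3K4me1 in the window was under H3K27ac, and 18.8% in the genome. The peaks share blocks and are not independent, so no test was made.

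**Figure D3:**
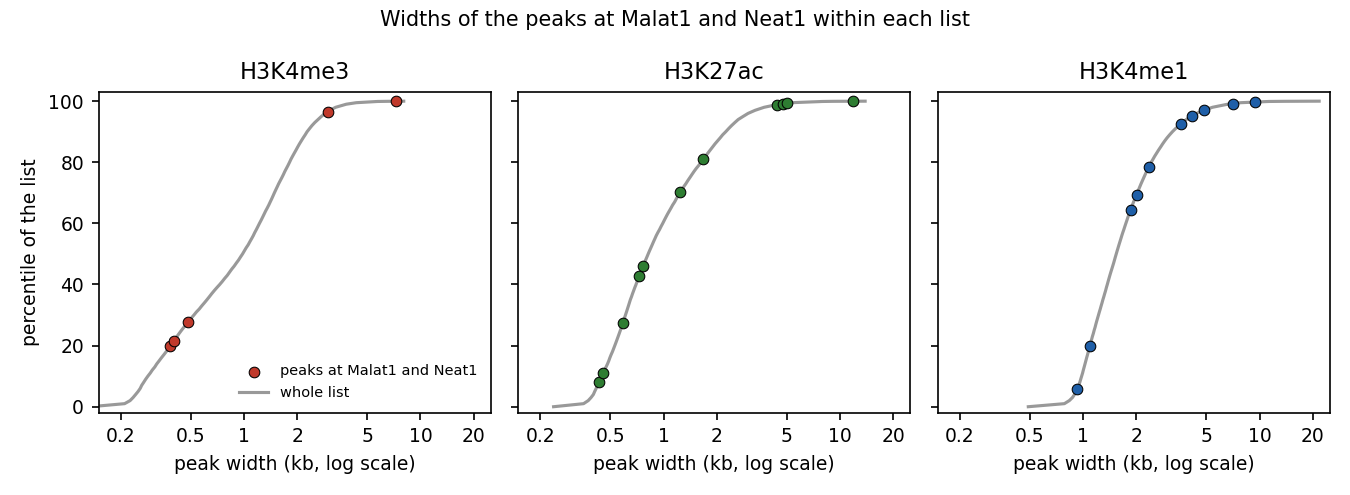
Widths of the window's peaks (coloured points) within each list (grey line), with peak width in kb on a log scale and the percentile of the list. Both H3K4me3 peaks of 2.98 and 7.22 kb, 4 H3K27ac peaks of 4.41 to 11.9 kb and H3K4me1 peaks of up to 9.42 kb lie at the upper end, and the small peaks beside them at the lower end.

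The peaks differed widely in size. The 5 H3K4me3 peaks ranged from 383 to 7224 bp, and 2 were wider than the list's median of 981 bp. H3K27ac peaks ranged from 432 to 11901 bp, with 6 of 11 wider than the median of 818 bp and 4 at a score of 3100. H3K4me1 peaks ranged from 927 to 9419 bp, with 8 of 10 wider than the median of 1541 bp. Their scores ran from 57.01 to 1259.57, and 8 were above the list's median of 128.2. For H3K4me3 and H3K27ac, wide peaks with a score of 3100 thus stood beside small ones near the lowest score that the lists keep, which is 50. The highest H3K4me1 score of the window was well below the list's maximum of 3035.49.

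H3K27ac peaks joined within 12.5 kb formed 2 clusters in the window, 1 for each gene. The Malat1 cluster, at 5794020 to 5823845, held 9 peaks that covered 18.3 kb, and 79 of 16953 clusters covered as much or more (0.466%). The Neat1 cluster, at 5837339 to 5852854, held 2 peaks over 13.6 kb, and 174 clusters covered as much or more (1.03%). A gap of 13493 bp kept them apart. With joining within 5 kb, an alternative chosen after the data were seen, the spans were the same and 20 of 20733 clusters (0.0965%) covered as much as that of Malat1 and 67 (0.323%) as much as that of Neat1. With joining within 15 kb, likewise chosen later, they became 1 cluster of 11 peaks over 31.9 kb, and 15 of 15974 clusters were as large. Whether the genes count as 1 acetylated region or 2 therefore depends on that distance.

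As a whole, the window was dense in H3K4me3, H3K27ac and H3K4me1. The genome was divided into 32985 tiles of 80 kb, and 155 tiles (0.47%) had as much H3K4me3 as the window, 6 (0.0182%) as much H3K27ac and 169 (0.512%) as much H3K4me1. The median tile held 0 kb of H3K4me3, 0 kb of H3K27ac and 1.08 kb of H3K4me1. None of the tiles matched the window in all 3 marks. The tiles have fixed ends while the window was placed around the genes and chosen with these peaks known, so the ranks describe the window and do not test it.

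**Figure D4:**
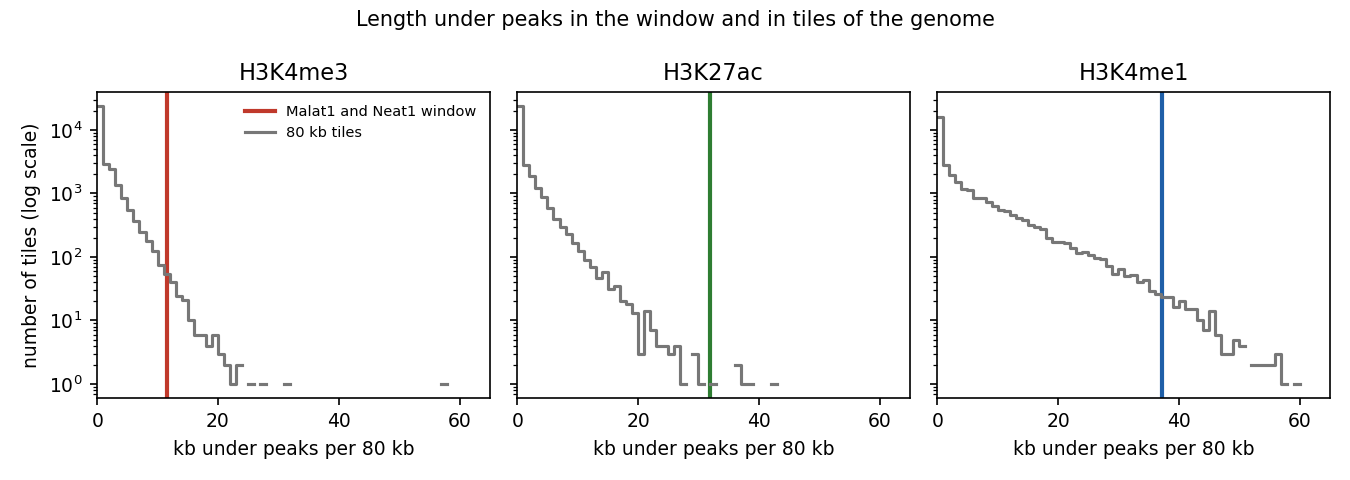
Length under peaks of H3K4me3, H3K27ac and H3K4me1 in the window (coloured line) and in tiles of 80 kb over the genome (grey steps), with kb under peaks on the horizontal axis and the number of tiles on a log scale. The window stands at 11.5, 31.9 and 37.3 kb, in the upper tail for each mark and farthest out for H3K27ac.

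Base by base, 45.2% of the window held no mark, against 93.7% of the genome. H3K27ac with H3K4me1 and no H3K4me3 was the most frequent combination, with 20.1 kb or 25.1% of the window, against 0.645% of the genome. H3K4me3, H3K27ac and H3K4me1 met on 5.27 kb or 6.59% of the window, against 0.391% of the genome. H3K4me3 with H3K27ac and without H3K4me1 took 4.17 kb or 5.21%, against 0.205% of the genome, and is the gap at the Malat1 start. H3K4me3 without another mark took 0 kb, against 0.134% of the genome. The H3K4me3 of the window lay mostly in 2 wide peaks, too few to read this 0.

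No H3K27me3 peak touched the window. The nearest were 1 of 338 bp with a score of 72.07 at 5751453 to 5751790, 43.9 kb beyond the 3′ end of Malat1, and 1 of 405 bp with a score of 61.74 at 5925213 to 5925617, 79.7 kb upstream of the Neat1 start. Of the tiles, 84.9% also held no H3K27me3, so a window without that mark was common.

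The ends of the window fell between peaks. The peaks just inside were the H3K4me1 peak of 1.09 kb at 5784729 on the Malat1 side and the H3K4me1 peak that ended at 5853010 on the Neat1 side. Just outside lay an H3K4me1 peak of 2.04 kb with a score of 487.88, which ended 532 bp before the window at 5779468, and an H3K4me1 peak of 4.96 kb with a score of 615.45, which began at 5870244, 10.2 kb past it. The nearest H3K4me3 peaks outside were 1.1 kb wide with a score of 3100, 8.55 kb before the window, and 1.39 kb wide with a score of 2383.07, 14.3 kb past it.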

How the data were processed

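The data are 4 lists of peak intervals on mm9, 1 per mark. The authors deposited a score with each interval, on a scale that neither the lists nor the labels state. Per the submitters' processing notes, the tools included Bowtie 0.12.9, MACS 1.4 and Cufflinks, for which no version is stated, and their roles are not described. The control, the calling threshold and the handling of duplicates are not given in these sources. Depth and antibody quality affect how many peaks a list holds and how wide they are, so marks were not compared by number of peaks.

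Peaks were counted when they touched the window by at least 1 bp. Coordinates are 1-based. Covered length counts each base once, and ranks were taken within a list. Tiles of 80 kb ran over 19 autosomes and X up to the last peak. CpGs and motifs were counted in the RefSeq promoters of GRCm38.p6. Python 3.11.15, numpy 2.4.6 and matplotlib 3.10.9 were used, and the interval functions were tested on simulated data. Genes named are Malat1 and Neat1 and, by order, the gene upstream of Neat1. The other neighbour is not reported here. Genes of paraspeckle and speckle proteins were not examined, because gene positions on mm9 were not at hand.

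The window, the genes and the comparisons were chosen with earlier results of these data known.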

Additional observations from a re-analysis of the deposited data

How the results depend on the processing

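Of 58 values under other settings for 19 counts and lengths, 43 stayed within 1.5 times the reported value. These 43 include every H3K27me3 value, each 0 against 0, so the share overstates how stable the other marks were. Limiting each list to scores at or above its median left 2 H3K4me3 and 6 H3K27ac peaks, with 2 H3K4me3 peaks on H3K27ac and 2 on H3K4me1. Keeping the 16975 peaks of highest score in each list left 2 H3K4me3, 6 H3K27ac and 6 H3K4me1 peaks, and 0 bp of H3K4me1 on Malat1, against 3587 bp in the full list. Merging peaks within 1 kb gave 3 H3K4me3, 6 H3K27ac and 6 H3K4me1 peaks. Fewer peaks follow from these settings by construction, and the covered lengths of the window stayed within 1.5 times. With the gene intervals extended by 2 kb on each side, H3K27ac covered 6419 bp at Malat1 and 6547 bp at Neat1, and H3K4me1 6370 bp at Neat1. Joining within 15 kb gave 1 H3K27ac cluster. The H3K27me3 count was 0 under each of the settings run, which could not have changed it. Filtering, narrowing and merging add no peaks. The widening by 20 kb stopped short of the nearest H3K27me3 peak, 28.2 kb from the window.

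No paired analysis was possible because each mark has 1 library. The unknown read depth limits what a missing peak can show, and the many scores at or just above 3100 hide differences among the strongest peaks.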

Other observations

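Malat1 and Neat1 are a pair of wide, top-scoring H3K4me3 peaks with 38.6 kb between them. Of the 915 H3K4me3 peaks at least 2.98 kb wide with a score of 3100 or more, 67 (7.32%) had another such peak within that distance. The width and the distance were both taken from this pair, so the share is a description. Over the bases under H3K4me3, 36.3% in the window and 16.2% in the genome had H3K27ac without H3K4me1, and all of those in the window lay in the gap at the Malat1 start. Of the bases under H3K27ac, 7.62% in the window and 14.2% in the genome had neither H3K4 mark.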
